A study of Homo sapiens with 6 samples.

Results

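The FOS, JUN and BATF genes of the AP-1 family were followed in MM.1S cells, an established human multiple myeloma line, after knockdown of PRKCN. The members are FOS, FOSB, FOSL1, FOSL2, JUN, JUNB, JUND, BATF and BATF3, taken by symbol because they encode AP-1 subunits. They were chosen by symbol with values of these data in view, namely the fall of the FOS and FOSB counts between the groups compared here. The contrast that prompted the choice is therefore described below for the members with no p-value, and their calls by the limits used for all genes are counted only as a description. All 9 symbols were listed among the 21850 genes of the count table, and 8 passed the filter on low counts. FOSL1 was the member that did not pass.

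RNA was sequenced on day 3 after lentiviral infection. The shNT group (3 libraries) carried a scramble hairpin in otherwise wild-type MM.1S cells, and the shPRKCN group (3 libraries) carried a hairpin against PRKCN, so both groups share the infection. The labels give the knockdown group as PRKCN shRNA without saying which hairpin it was, and nothing says that the libraries of a group came from separate cultures, so the spread between them may be technical and the p-values below measure only that spread. Library totals ran from 35625564 to 37730003 counts and overlapped between the groups. PRKCN, listed under its current symbol PRKD3, stood at 41.0% of its shNT level in shPRKCN cells (1262 ± 41.7 against 517 ± 23.4 CPM, SD, n = 3). CPM values are counts relative to the TMM-scaled library size. All 8 plasma cell markers were above the floor of 3 counts, with a summed level of 3862 to 3927 CPM in shNT and 2527 to 2620 CPM in shPRKCN libraries. The markers did not move alike. On average 7 of the 8 were lower in shPRKCN cells, from XBP1 (913 to 375 CPM) to CD38, almost unchanged (36.4 to 36.1 CPM). SDC1 was higher (896 to 1017 CPM).

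AP-1 is a dimer of basic leucine zipper (bZIP) proteins. A FOS or BATF protein binds DNA only with a partner, usually a JUN protein, whereas JUN proteins can also pair with each other, and the dimers read the TPA response element (TRE) or the closely related cyclic AMP response element (CRE). FOS, FOSB, JUN and JUNB are immediate-early genes that are switched on rapidly by growth factor, stress and kinase signals, while BATF lacks a transactivation domain and acts in lymphocytes together with JUN proteins and IRF4.

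The stretch just upstream of the start site is printed for the 7 members with an entry in the RefSeq promoter table used here (GRCh38.p14), because it shows where the members share a signal-responsive element and where they differ. FOSL1 and BATF3 had no entry. Each line runs 5′ to 3′ on the gene's strand from 120 bases before to 20 bases after the start site. The stretches are FOS at chr14:75278708-75278847 (plus strand), FOSB at chr19:45467876-45468015 (plus strand), FOSL2 at chr2:28392738-28392877 (plus strand), JUN at chr1:58784028-58784167 (minus strand), JUNB at chr19:12791366-12791505 (plus strand), JUND at chr19:18281603-18281742 (minus strand) and BATF at chr14:75522349-75522488 (plus strand). Capitals mark a match to TGACGT, the CRE core, to TGACNTCA, the CRE-like octamer, to TGANTCA, the TRE, or to TATAAA, the TATA box, on either strand.
FOS: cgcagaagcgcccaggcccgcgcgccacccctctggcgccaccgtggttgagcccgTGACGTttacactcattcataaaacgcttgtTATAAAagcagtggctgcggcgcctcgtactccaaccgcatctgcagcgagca
FOSB: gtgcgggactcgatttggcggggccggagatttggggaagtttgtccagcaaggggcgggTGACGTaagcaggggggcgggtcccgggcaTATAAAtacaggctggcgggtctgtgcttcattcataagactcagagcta
FOSL2: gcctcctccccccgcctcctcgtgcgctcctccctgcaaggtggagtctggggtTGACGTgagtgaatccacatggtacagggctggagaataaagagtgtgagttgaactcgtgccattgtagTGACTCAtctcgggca
JUN: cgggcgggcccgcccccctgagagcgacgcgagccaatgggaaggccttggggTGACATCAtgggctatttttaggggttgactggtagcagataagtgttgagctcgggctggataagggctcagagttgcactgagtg
JUNB: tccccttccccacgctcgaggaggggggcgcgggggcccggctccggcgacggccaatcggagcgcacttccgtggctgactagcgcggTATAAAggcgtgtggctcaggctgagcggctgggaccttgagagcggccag
JUND: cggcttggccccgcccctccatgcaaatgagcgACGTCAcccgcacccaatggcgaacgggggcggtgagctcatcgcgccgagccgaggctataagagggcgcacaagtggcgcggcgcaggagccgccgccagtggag
BATF: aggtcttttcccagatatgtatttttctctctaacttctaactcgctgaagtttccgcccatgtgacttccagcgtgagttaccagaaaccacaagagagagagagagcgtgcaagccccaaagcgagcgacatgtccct

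The CRE core was found in the promoters of FOS, from 64 to 59 bases before the start, FOSB, from 60 to 55 before, FOSL2, from 66 to 61 before, and JUND, where a match on the minus strand lies 87 to 82 bases before the start. JUN has no such core, and an octamer, TGACATCA, stands from 67 to 60 bases before its start. JUND holds a further octamer, TGACGTCA, from 200 to 193 bases before the start and outside the stretch shown, which contains the core on both strands. Among 35116 RefSeq promoter windows of 300 bases (250 before to 50 after the start), several of which can belong to the same gene, the CRE core occurred in 7.98% and the octamer in 7.72%. Either of them occurred in 13.6% of all windows, in 13.8% of the windows of tested genes and in 5 of the 7 member promoters. The 4 matches of FOS, FOSB, FOSL2 and JUN start between 70 and 55 bases before the start site, a stretch chosen after the matches were seen, and 1.60% of all windows have a match starting there. JUNB and BATF had no match to either.

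The other elements were scattered over the members. The TATA box was found in FOS, FOSB and JUNB, from 33 to 28, 30 to 25 and 31 to 26 bases before the start, and in 11.5% of all windows. FOSL2 alone held a TRE, from 5 to 11 bases after the start, and 7.71% of all windows held it. The GC box, GGGCGG, was found in 6 of the 7, all but JUNB, and in 45.0% of all windows. Among the windows of tested genes, 63.7% held the GC box, 6.55% the TATA box and 5.27% the TRE. The CArG box, the serum response element's core, was found in none of the 7 windows and in 1.29% of all windows. The windows reach only 250 bases before the start, so a CArG box further upstream would have been missed in any member, FOS included. These are matches of letters, and no binding was measured.

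**Figure D1:**
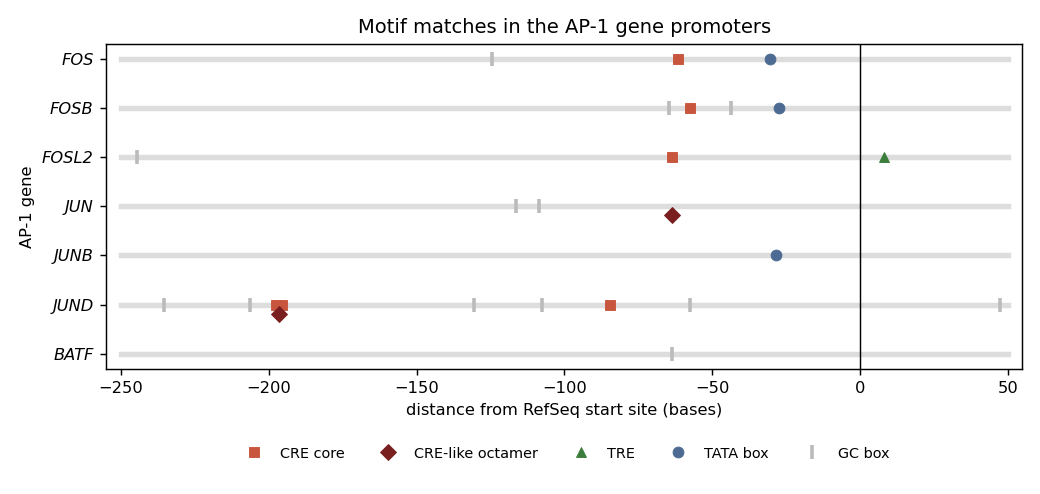
Each row is the promoter window of an AP-1 gene and the x axis is the distance from its RefSeq start site in bases, with symbols for motif matches on either strand. The CRE core of FOS, FOSB and FOSL2 and the octamer of JUN stand at nearly the same distance from the start, while JUNB and BATF have neither.

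FOS, FOSB and JUN fell most among the AP-1 genes, each to under 20% of its shNT level. FOSL2 and JUND fell much less, JUNB stayed closest to its shNT level among the genes with many counts, and BATF was higher in shPRKCN cells. A gene was called when its adjusted p was under 0.05 (quasi-likelihood test of edgeR, adjusted by Benjamini-Hochberg over all genes tested) and its log2 fold change (log2FC, shPRKCN minus shNT) went past 0.58 either way. SE is the standard error of a log2FC. By this rule 5 of the 8 tested members were called lower and 1 higher, and for comparison 10.6% of the 13971 genes tested were called lower and 6.15% higher. The 3 shPRKCN libraries stood below every shNT library in 6 of the 8 tested members and above them in 1, against 29.8% and 29.0% of all genes tested. The median log2FC was −0.61 over the 8 members and 0.00 over all genes tested. Since the members were proposed with this contrast in view, these shares describe the family and test nothing. On log2(FPKM + 1), which compresses low genes, 3 members were called (FOS, FOSB and JUN).

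**Figure D2:**
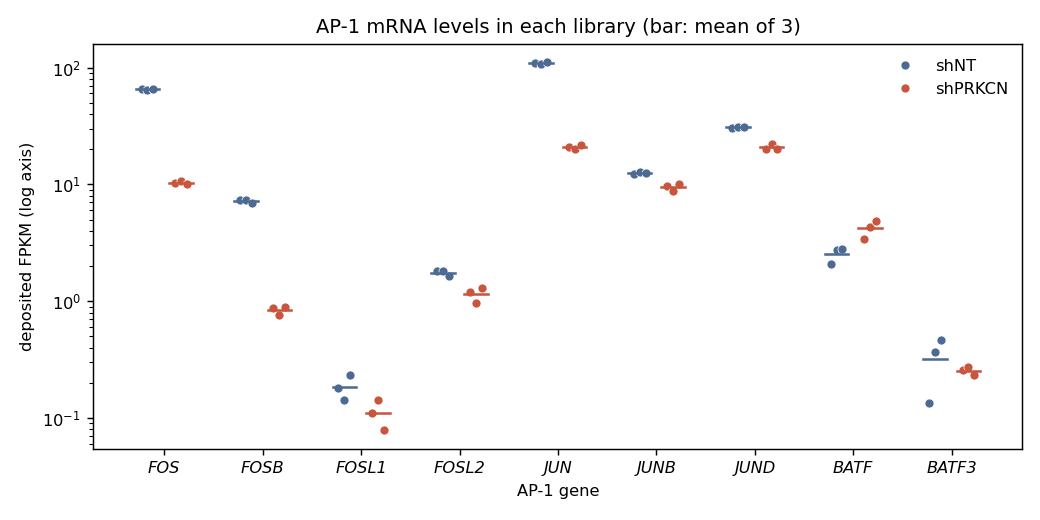
Deposited FPKM of each AP-1 gene on a log axis, with a point per library (blue shNT, red shPRKCN) and a bar at the mean of 3. FOS, FOSB and JUN show the widest gaps between the groups, BATF is the member with the red points on top, and the points of BATF3 overlap.

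Among the FOS genes, FOS, the prototype subunit and the partner of JUN in the classical AP-1 dimer, lies at chr14:75278828-75282230. It had 4897, 4958 and 5206 counts in the shNT and 794, 845 and 795 in the shPRKCN libraries. Every shPRKCN library was far below every shNT library. The level fell from 138 ± 2.33 to 21.6 ± 0.955 CPM (SD, n = 3 per group), which left 15.7% of the shNT level, a log2FC of −2.67 (SE 0.049). With any 1 library left out it stayed between −2.70 and −2.64.

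FOSB, a close relative of FOS, lies at chr19:45467996-45475179 and fell most of the family. It had 995, 1025 and 982 counts in the shNT and 122, 107 and 126 in the shPRKCN libraries. The groups were again well apart, with little spread inside either. The level fell from 27.4 ± 1.05 to 3.15 ± 0.241 CPM (SD, n = 3 per group), 11.5% of the shNT level, and the log2FC was −3.12 (SE 0.097). Its counts in shPRKCN cells are still above 100 per library, so the fold does not rest on a handful of reads.

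The Fos-related antigens FOSL1 and FOSL2, which lack the strong transactivation domain of FOS and are expressed later after a stimulus, moved less. FOSL2, at chr2:28392858-28417317, had 573, 584 and 542 counts in the shNT and 392, 320 and 426 in the shPRKCN libraries. The shPRKCN libraries were all lower, the second one by most. Its log2FC was −0.62 (SE 0.095), just past the fold limit, and −0.51 without shPRKCN 2, under it. FOSL1, at chr11:65892049-65900545, had only 11, 9 and 15 counts in the shNT and 7, 9 and 5 in the shPRKCN libraries, too few for the filter of the main fit. Where other settings kept FOSL1 it was not called, with a log2FC of −0.77 (SE 0.694) from DESeq2 and −0.76 (SE 0.643) from edgeR without a filter. The antisense gene FOSL2-AS1 overlaps FOSL2 and had at most 1 count in any library.

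Of the JUN genes, which can dimerize with each other as well as with FOS and BATF proteins, JUN was the most abundant and the most affected. JUN, at chr1:58780791-58784047, had 12559, 12963 and 13592 counts in the shNT and 2500, 2428 and 2649 in the shPRKCN libraries. The groups were separated by several times the whole spread within them. The level fell from 357 ± 5.38 to 67.3 ± 2.25 CPM (SD, n = 3 per group), 18.9% of the shNT level, with a log2FC of −2.41 (SE 0.039).

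JUNB, a weaker activator than JUN that can restrain it, lies at chr19:12791486-12793315. It had 802, 859 and 858 counts in the shNT and 660, 603 and 686 in the shPRKCN libraries. All shPRKCN libraries were lower, but 75.3% of the shNT level was left. The log2FC of −0.41 (SE 0.072) was under the fold limit in every alternative tried. JUNB overlaps HOOK2, and reads of the overlap cannot be assigned without the strand, which is not given. HOOK2 itself had 193 to 276 counts per library and a log2FC of 0.18 (SE 0.126, adjusted p = 0.24, edgeR).

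JUND, the JUN gene that is expressed most constantly in resting cells, lies at chr19:18279694-18281622. It had 2079, 2208 and 2263 counts in the shNT and 1437, 1584 and 1442 in the shPRKCN libraries, and all shPRKCN libraries were lower. The log2FC of −0.59 (SE 0.051) was at the edge of the fold limit. It was −0.57 without shPRKCN 1, −0.55 without shPRKCN 3 and −0.57 with scaling by library size alone, all under the limit. JUND at −0.59 and FOSL2 at −0.62 were the members just past the limit and JUNB at −0.41 the nearest inside it.

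BATF was the member that moved the other way. BATF, at chr14:75522469-75546992, had 68, 92 and 97 counts in the shNT and 114, 148 and 167 in the shPRKCN libraries. Every shPRKCN library was above every shNT library, although 97 and 114 counts lie close together. The level was 2.34 ± 0.361 CPM in shNT and 3.81 ± 0.688 CPM in shPRKCN cells (SD, n = 3 per group), with a log2FC of 0.70 (SE 0.185). It ran from 0.58 without shNT 1 to 0.84 without shPRKCN 1. BATF3, at chr1:212686417-212699840, had 6, 17 and 22 counts in the shNT and 12, 13 and 11 in the shPRKCN libraries. The groups overlapped, and its log2FC of −0.35 (SE 0.491) became 0.01 without shNT 3 and −0.71 without shNT 1, so no direction can be read at this depth.

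**Figure D3:**
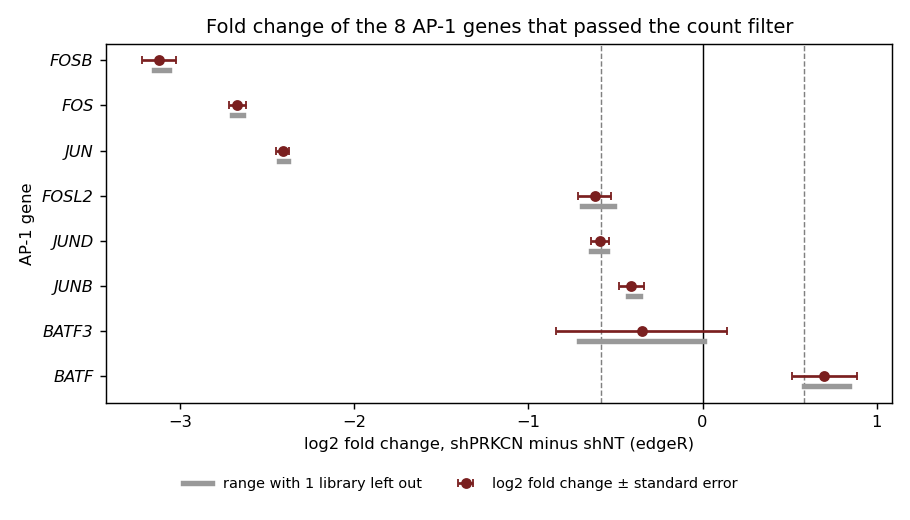
Log2 fold change (shPRKCN minus shNT, points with standard errors from edgeR) of the 8 AP-1 genes that passed the filter, with the range over fits that leave out 1 library as grey bars and the fold limit of 0.58 as dashed lines. FOSB, FOS and JUN stand apart below −2, FOSL2 and JUND straddle the limit, and BATF is the member to the right of 0 throughout.

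Because the members changed by unequal amounts, the make-up of the AP-1 mRNA pool shifted. For levels between genes, the deposited FPKM (fragments per kilobase of the length assigned to each gene, scaled to the library's total reads) were used. That length can be shorter than the gene's span, as for FOS (2104 bases) and BATF (913 bases). The FPKM summed over the 9 members were 228, 227 and 232 in the shNT and 66.8, 67.9 and 69.1 in the shPRKCN libraries, so 29.7% of the shNT sum was left. FOS and JUN together made up most of the shNT pool, with a share of 28.3% ± 0.331 for FOS and 47.5% ± 0.196 for JUN (SD, n = 3). In shPRKCN cells the share of FOS was 15.2% ± 0.614 and that of JUN 30.6% ± 1.12 (SD, n = 3).

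The genes that fell less gained in share. JUND made up 13.4% ± 0.166 of the summed FPKM in shNT and 30.5% ± 1.75 in shPRKCN cells (SD, n = 3 per group). JUNB took 5.36% to 5.58% of the pool in the shNT and 13.0% to 14.6% in the shPRKCN libraries. BATF went from 1.11% ± 0.167 to 6.17% ± 1.02 (SD, n = 3 per group). Shares add up to the whole, so a gain in share is not a gain in level, and of these 3 genes BATF alone also had higher FPKM. The FPKM of the FOS genes divided by those of the JUN genes were 0.496, 0.483 and 0.482 in the shNT and 0.245, 0.249 and 0.239 in the shPRKCN libraries. In proportion to their shNT level, the FOS genes summed thus had less mRNA left than the JUN genes summed in every shPRKCN library. Gene by gene this did not hold. In CPM, FOSL2 kept 65.1% of its shNT level and JUND 66.4%, while FOS kept 15.7% and JUN 18.9%. These are mRNA levels, and dimers were not measured.

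The order of the members by FPKM changed accordingly. In shNT cells JUN (109 ± 1.55 FPKM) was followed by FOS (64.9 ± 0.989), JUND (30.8 ± 0.454), JUNB (12.5 ± 0.204), FOSB (7.21 ± 0.277), BATF (2.54 ± 0.395) and FOSL2 (1.75 ± 0.105), each above the next in all 3 libraries (SD, n = 3). BATF3 and FOSL1 came last, at 0.320 ± 0.169 and 0.186 ± 0.0454 FPKM, and overlapped. In shPRKCN cells JUN (20.8 ± 0.886 FPKM) and JUND (20.7 ± 1.10 FPKM) overlapped at the top, followed by FOS (10.3 ± 0.345), JUNB (9.53 ± 0.633), BATF (4.20 ± 0.758), FOSL2 (1.16 ± 0.166) and FOSB (0.841 ± 0.0727). FOSB moved from above to below both BATF and FOSL2. Set among all tested genes, the FPKM of FOS exceeded those of 94.5% of genes in shNT and of 68.0% in shPRKCN cells, those of FOSB 59.2% and 23.6%, those of JUN 96.9% and 81.9%, and those of JUND 87.4% and 81.7%.

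FOS and BATF are neighbours on chromosome 14, with JDP2 between them, and BATF moved opposite to FOS. JDP2, a repressor that pairs with JUN proteins, lies at chr14:75426943-75474107, 144713 bases beyond FOS and 48362 bases before BATF. It had 22, 28 and 27 counts in the shNT and 9, 5 and 13 in the shPRKCN libraries, and was lower in every shPRKCN library. Its log2FC was −1.54 (SE 0.458), but 2 of its shPRKCN libraries had under 10 counts, so that it passed the filter only through the shNT libraries, and no p is given. JDP2-AS1, which overlaps it, had at most 3 counts per library. On the outer sides, the nearest tested genes were TMED10, with a log2FC of −0.16 (adjusted p = 0.00012, edgeR), and ERG28, with 0.17 (adjusted p = 0.073, edgeR).

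None of the nearest tested genes around FOSB, JUN and JUNB was called. ERCC1 and RTN2 next to FOSB had log2FC values of 0.05 and −0.57 (adjusted p = 0.43 and 0.14, edgeR). MYSM1 next to JUN had −0.26 (adjusted p = 1.1e-06, edgeR), and LINC02777 on its other side, with a mean of 11.7 counts, had −0.70 (adjusted p = 0.25, edgeR). GET3 and PRDX2 next to JUNB had 0.02 and −0.16 (adjusted p = 0.70 and 0.00024, edgeR).

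By profile over the 6 libraries, the nearest genes were searched among 12034 genes with a mean of at least 1 CPM, by the root-mean-square distance between log2 CPM profiles centred on their means. The profile of FOS was nearest to LOC613266 (distance 0.0803), JUN (0.145) and ANKRD37 (0.173). That of FOSB was nearest to NCAM1 (0.135), SPINK5 (0.221) and FOS (0.250), and that of JUNB to RAD21 (0.0124), SMAD5 (0.0176) and TRAM1 (0.0201). With 2 groups of 3 libraries, such a distance reflects mainly the size of the fold change, and the rank says nothing of shared control.

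Other bZIP genes whose proteins can pair with or compete with AP-1 subunits were described from a list of 28 genes, of which 23 were tested. Of these 8 (34.8%) were called lower, JDP2 among them, and none higher, beside 10.6% and 6.15% of all genes tested. An unadjusted p under 0.05 was reached by 14 lower and 4 higher genes of the 23, and by 29.7% (lower) and 28.7% (higher) of all genes tested. The median log2FC was −0.27 against 0.00 over all genes tested. DESeq2 called none of them higher either. ATF3, a stress-induced partner of JUN, fell from 32.6 ± 0.152 to 13.6 ± 0.607 CPM (SD, n = 3), a log2FC of −1.26 (SE 0.069, adjusted p = 9.9e-26, edgeR). DDIT3, the stress factor CHOP, had −1.03 (SE 0.087, adjusted p = 1.5e-16, edgeR) and MAFF, a small MAF protein, −0.87 (SE 0.094, adjusted p = 1.7e-12, edgeR). NFE2L2, the oxidative stress factor, BACH1, its heme-regulated competitor, and CEBPG had −0.67, −0.62 and −0.61. Without shNT replicate 2 the list's count was 5. BATF2 had 1 to 8 counts per library and was not tested.

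IRF4, the interferon regulatory factor that binds composite elements with BATF and JUN proteins, fell from 624 ± 12.5 to 173 ± 3.19 CPM (SD, n = 3), while BATF rose by the values above. IRF8, its relative, had a log2FC of −0.22 (SE 0.097, adjusted p = 0.044, edgeR) and was not called.

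Genes that carry signals to AP-1, such as RAS and RAF proteins, the mitogen-activated kinases (MAPK) and the factors that bind the FOS and JUN promoters, were listed as 42 genes, with 41 tested. They were spread on both sides, with 4 (9.76%) called lower, close to the 10.6% of all genes, 1 (2.44%) called higher, against 6.15%, and a median log2FC of 0.02. Of the 41, 16 lower and 17 higher genes reached an unadjusted p under 0.05 (edgeR). Among all genes tested, 29.7% (lower) and 28.7% (higher) did, so changes under the fold limit were more frequent in the list. On log2(FPKM + 1) 3 were called. The kinase RPS6KA5 (MSK1), which phosphorylates CREB and histone H3 at immediate-early genes, had −1.16 (SE 0.138, adjusted p = 3.6e-11, edgeR). ELK4, a partner of serum response factor, had −0.82 (SE 0.046, adjusted p = 2.3e-25, edgeR), MAP2K6, an activator of p38, −0.71, and NRAS −0.64. MAPK11, a p38 kinase, was higher, with 1.20 (SE 0.207, adjusted p = 9.7e-07, edgeR), with 53 to 60 counts per shNT library and 106 to 152 per shPRKCN library.

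Genes for the turnover of AP-1 proteins and of their AU-rich mRNAs were listed as 23 genes, all tested. None was called by edgeR in either direction, beside 10.6% (lower) and 6.15% (higher) of all genes tested. Their median log2FC was 0.00. An unadjusted p under 0.05 was reached by 7 lower and 6 higher genes of the 23, near the share of all genes tested (29.7% and 28.7%), and DESeq2 called none.

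Genes known from other cells as AP-1 targets were listed as 54 genes, of which 43 were in the table and 31 were tested. Of these 10 (32.3%) were called lower and 3 (9.68%) higher, beside 10.6% and 6.15% of all genes tested, with a median log2FC of −0.13. VIM, the filament protein vimentin, fell from 341 ± 12.9 to 99.9 ± 1.78 CPM (SD, n = 3), a log2FC of −1.77 (SE 0.038, adjusted p = 7.2e-49, edgeR). CCNA2, the S and G2 phase cyclin A2, had −1.49, PLAUR, the urokinase receptor, −1.27, and FN1, fibronectin, −1.25. In the other direction, GJA1, the gap junction protein connexin 43, rose from 39.6 ± 3.60 to 117 ± 4.86 CPM (SD, n = 3), a log2FC of 1.57 (SE 0.049, adjusted p = 8.6e-39, edgeR). S100A9, also among the 3, had 24, 8 and 9 counts in the shNT and 49, 56 and 53 in the shPRKCN libraries. It passed the filter only through the shPRKCN libraries, so its log2FC of 1.89 (SE 0.383) is given with no p. Whether AP-1 acts on these genes in MM.1S cells was not tested.

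Immediate-early genes outside the AP-1 family, which answer to the same stimuli, were listed as 30 genes, with 26 tested, 13 called lower, 2 higher, beside 10.6% and 6.15% of all genes tested, and a median log2FC of −0.61. The nuclear receptor NR4A1 had 75, 68 and 79 counts in the shNT and 2, 5 and 6 in the shPRKCN libraries, or 2.03 ± 0.155 and 0.115 ± 0.0548 CPM (SD, n = 3). It passed the filter only through the shNT libraries, as did EGR2 among the 13, so neither fold nor p is given. EGR1, a zinc finger factor, had 72, 75 and 127 counts in the shNT and 25, 33 and 3 in the shPRKCN libraries. Its log2FC was −2.19 (SE 0.332), with shPRKCN 3, at 3 counts, far below the other two, so no p is given. KLF4 had −1.93, RGS1 −1.54, NR4A2 −1.43, and the MAPK phosphatase DUSP1, which fell from 283 ± 2.70 to 99.9 ± 0.621 CPM (SD, n = 3), −1.50. The 2 called higher were the kinase SGK1 (0.94) and CCN2 (0.93), named after their values were seen.

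In bulk RNA, fewer cells of a type and less RNA per cell cannot be told apart, and marker genes of other cells were counted beside these results. The summed level of 5 T and NK cell markers was 10.7 to 12.0 CPM in shNT and 27.5 to 31.3 CPM in shPRKCN libraries, nearly all of it CD3E (10.9 ± 0.493 and 28.8 ± 2.03 CPM, SD, n = 3). CD3D and CD3G had at most 1 count in any library, and 2 of the 5 were above the floor of 3 counts on average. The 5 myeloid markers summed to 0.320 to 0.878 CPM in shNT and 1.55 to 1.69 CPM in shPRKCN libraries, mostly S100A9, with LYZ at 0 to 2 counts and 2 of the 5 above the floor. The 4 B cell markers summed to 0.653 to 1.13 and 0.834 to 1.34 CPM, and the 6 stromal and epithelial markers to 2.40 to 2.99 and 1.10 to 2.21 CPM, in shNT and shPRKCN libraries. Their part in the AP-1 values was not tested.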

How the data were processed

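RNA-seq of MM.1S cells was analysed from the deposited counts per gene (21850 genes, 6 libraries) and the deposited FPKM, which follow from those counts, the library totals and a gene length within 1% for every gene. The submitters' processing notes name FastQC, HISAT2, StringTie and GRCh38.p14; the counting program, annotation and strandedness are not given in the sources used here. The study's methods used DESeq2 and set limits of 0.05 on the q-value and 0.58 on the absolute log2 fold change.

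Counts were scaled by TMM, filtered with filterByExpr and compared by the quasi-likelihood test of edgeR 4.0.16 (R 4.3.3) on 13971 genes in all 6 libraries, with Benjamini-Hochberg adjustment and the study's limits. The standard error is the size of the log2 fold change over the square root of F. Alternatives were DESeq2 1.42.0, limma 3.58.1 on log2 FPKM with 1 or 0.1 added, other scalings and filters, the replicate number as a block, no fold limit, and each library left out. Within groups the libraries differed beyond counting noise (chi-square per degree of freedom 3.49 to 5.01), so none was taken as a repeat. The main edgeR fit, DESeq2 and limma with 1 added were also run on simulated counts with the same spread for all genes. Limits on the outcome were set for edgeR and DESeq2 only, and the other alternatives were not simulated.

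Members and lists were chosen with earlier results of these data known. Named genes are all members, the called genes of each other list with a mean of at least 20 counts (at most the 6 largest changes), JDP2, BATF2, ATF3, IRF4, IRF8, PRKD3, the nearest tested neighbours and the nearest profiles. Motifs and positions come from RefSeq tables (GRCh38.p14, Python 3.11.15). Protein sequences were not used here.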

Additional observations from a re-analysis of the deposited data

How the results depend on the processing

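The members' log2FC values kept their sign in 125 of 126 refits, and the exception was BATF3 at 0.01 without shNT 3. With any 1 library left out, 5 to 6 members were called. FOSL2 lost its call without shPRKCN 2, and JUND without shPRKCN 1 or 3 and with library-size scaling. Both also lost it on log2(FPKM + 0.1), at −0.57 each, where 4 members were called. On log2(FPKM + 1), 3 members were called (FOS, FOSB and JUN), and 3 again among genes with an FPKM of at least 1. On that scale FOSB had −2.16, FOSL2 −0.35 and BATF 0.55. The same 2 fits tested different numbers of genes. They called 4 of 27 and 4 of 20 other bZIP genes, against 8 of 23 in the main fit. Of the signal genes, 3 of 42 and 3 of 40 were called, against 5 of 41. Of the other immediate-early genes, 11 of 30 and 10 of 20 were called, against 15 of 26. Of all genes, 963 of 21850 and 945 of 10538 were called, against 2334 of 13971. Without a fold limit, 7 members, 18 other bZIP genes, 33 signal genes, 13 turnover genes, 21 targets and 7577 of all genes passed, against 13 targets and 0 turnover genes with it. With single libraries left out, the other bZIP genes ran from 5 (without shNT 2) to 9, signal genes from 5 to 6, targets from 12 to 14, other immediate-early genes from 15 to 16 and all genes from 2264 to 2313. The causes of these differences were not tested. The replicate numbers did not pair the libraries, since deviations of same-numbered libraries correlated at −0.0817, −0.0182 and −0.0303. With the replicate number as a block, 6 members, 8 other bZIP genes, 5 signal genes, 0 turnover genes, 13 targets, 15 other immediate-early genes and 2317 of all genes were called. Depth limits FOSL1, BATF3, BATF2 and JDP2, whose counts were too low to bound a moderate change.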
